A study of Mus musculus with 3 samples.

Results

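Blood vessels of the kidney rudiment were followed through 9 genes of endothelial cells, Pecam1, Cdh5, Esam1, Emcn, Eng, Kdr, Flt1, Tek and Tie1, together with Vegfa, the ligand of Kdr and Flt1. All spots that are not controls and whose gene name in the array files is one of these 10 symbols were taken. They made up 20 probes on 56 spots, out of 41174 probes on 43379 spots and 27484 gene names on the array. The kidneys came from mouse embryos of day E12.5, C57BL/6 Fgfrl1-/- and C57BL/6 wildtype. Fgfrl1 is a transmembrane receptor of the Fgf receptor family, and the Fgfrl1-/- embryos lack it in every cell, not in the endothelium alone. Whole rudiments were used, 6 to 9 in each RNA pool, so that the endothelium was a part of each pool of unknown size. Each of 3 two-colour Agilent arrays carried 1 Fgfrl1-/- pool in the Cy3 channel and 1 wildtype pool in the Cy5 channel. The dyes were swapped on 0 arrays, and an effect of the dye and an effect of the genotype cannot be told apart. Arrays 2 and 3 shared a slide, and array 1 was on a different one. Values are log2 ratios of Fgfrl1-/- over wildtype unless stated otherwise, and a positive value means more signal in the Fgfrl1-/- pool.

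Endothelial cells line all vessels and adhere to each other through surface and junction proteins such as Pecam1, VE-cadherin (Cdh5) and Esam. Vegfa, which epithelial and mesenchymal cells of the kidney secrete, drives their growth through the receptor tyrosine kinase Kdr (Vegfr2), whereas Flt1 (Vegfr1) binds the same ligand and also acts as a decoy for it. Tek (Tie2) and Tie1 are the receptors of the angiopoietin pathway, which stabilizes vessels. In the kidney, endothelial cells invade the mesenchyme around the ureteric bud and later form the capillaries of the glomeruli.

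Several of the 10 genes had more than 1 probe of 60 bases. The measured probes of Flt1, Cdh5 and Tek had mean ratios of opposite signs, and 1 Vegfa probe had a lower mean than the others. Of the Kdr probes, 1 did not exceed background. Differences between probes were not tested. The sequences of 6 probes of Flt1, Kdr and Vegfa are shown, each by its first 30 bases, 5′ to 3′, as given in the deposited file of array 1. They are in lower case throughout, and the positions are those of the whole probe on mm8 in the same file. No gene annotation of mm8 was used here, and no probe was assigned to an exon, intron or UTR.
Flt1 A_51_P398723 (NM_010228), chr5:147872564-147872623, minus strand: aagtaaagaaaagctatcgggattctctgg
Flt1 A_52_P520859 (NM_010228), chr5:147872637-147872696, minus strand: cctgtattattccgattttaataatctaat
Kdr A_51_P316553 (NM_010612), chr5:76214981-76215040, minus strand: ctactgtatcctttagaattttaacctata
Kdr A_52_P478193 (cDNA AK054510), chr5:76243311-76243370, minus strand: gtacaataacatgcaaaggtatatcaaagg
Vegfa A_52_P638895 (NM_009505), chr17:45481019-45481078, minus strand: cagatcggtgacagtcactagcttgtcctg
Vegfa A_51_P482552 (NM_009505), chr17:45482144-45482203, minus strand: actggattcgccattttcttatatctgctg
The first 2 Flt1 probes are 13 bases apart in the genome. The Vegfa probes shown had similar ratios, and the Vegfa probe that differed from them, A_52_P249424, is not shown. The GC content of the 20 probes ran from 25.0% to 55.0%.

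Signals of 16 of the 20 probes were well above background in both channels on all 3 arrays. Each of the 10 genes had at least 1 such probe, so that endothelial transcripts were measured in the Fgfrl1-/- pools as well as in the wildtype pools. The remaining 4 probes did not exceed background in the wildtype pool of any array. They are left out of the values below, except where all 20 probes or all probes of a gene are named. They were Pecam1 A_52_P349070, Kdr A_52_P478193, Flt1 A_52_P405145 and Flt1 A_52_P650151, and all of them are listed under the accession of a cDNA clone. The targeted gene had 1 probe. Fgfrl1 had ratios of -1.21, -1.51 and -1.83 on arrays 1, 2 and 3 (mean -1.52 ± 0.31, SD, n = 3 arrays, limma adjusted p = 0.033). All 3 arrays thus went the way their labels say. Ratios of arrays 2 and 3 correlated across all probes with r = 0.713, while those of array 1 correlated with arrays 2 and 3 at r = 0.106 and 0.222 (across probes, which are not independent replicates).

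None of the 20 probes passed the test for a difference between Fgfrl1-/- and wildtype kidneys. With limma and an adjusted p below 0.05, 0 of 20 probes were lower and 0 were higher, against 164 of all 41174 probes lower (0.398%) and 119 higher (0.289%). With median centring in place of loess, 91 probes of the array were lower and 2 higher, none of them from the 10 genes. At an unadjusted p below 0.05, 0 of the 20 probes passed, compared with 15.9% of all probes. The mean log2 ratios of the 16 measured probes lay between -0.17 and 0.18, and their adjusted p-values between 0.34 and 0.98. With loess, their 95% intervals all remained within a 2-fold difference in either direction, with an outer limit between 1.16-fold (Esam1) and 1.59-fold (Flt1 A_51_P398723). These intervals come from limma, which moderates the spread of a probe towards that of all probes. The offset of 50 added to every signal makes differences of dim probes smaller. The intervals treat all arrays as independent, although some shared a slide, and they do not cover the choice of normalization. With median centring, Emcn (-0.48), the brighter Cdh5 probe (-0.35), Kdr (-0.25) and Esam1 (-0.24) fell below their lower limits of -0.31, -0.26, -0.20 and -0.22. The other measured probes stayed inside theirs. Whole rudiments do not show whether a transcript changes by fewer endothelial cells or by less RNA per cell, as these cannot be told apart in pooled tissue.

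The median of the 9 endothelial genes, each taken by its brightest probe, was 0.04, and that of all probes was 0.0037. By array, the median of the 9 genes was 0.20, -0.02 and -0.06. Array 1 stood above the others in most genes. Of the 16 measured probes, 14 were above 0 on array 1, compared with 50.5% of all probes, whereas 5 were above 0 on array 2 and 8 on array 3. The brightest probes of Pecam1 and Eng were above 0 on all 3 arrays, which is 2 of the 16 probes against 19.1% of all probes. No measured probe was below 0 on all 3 arrays, against 19.3% of all probes.

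**Figure D1:**
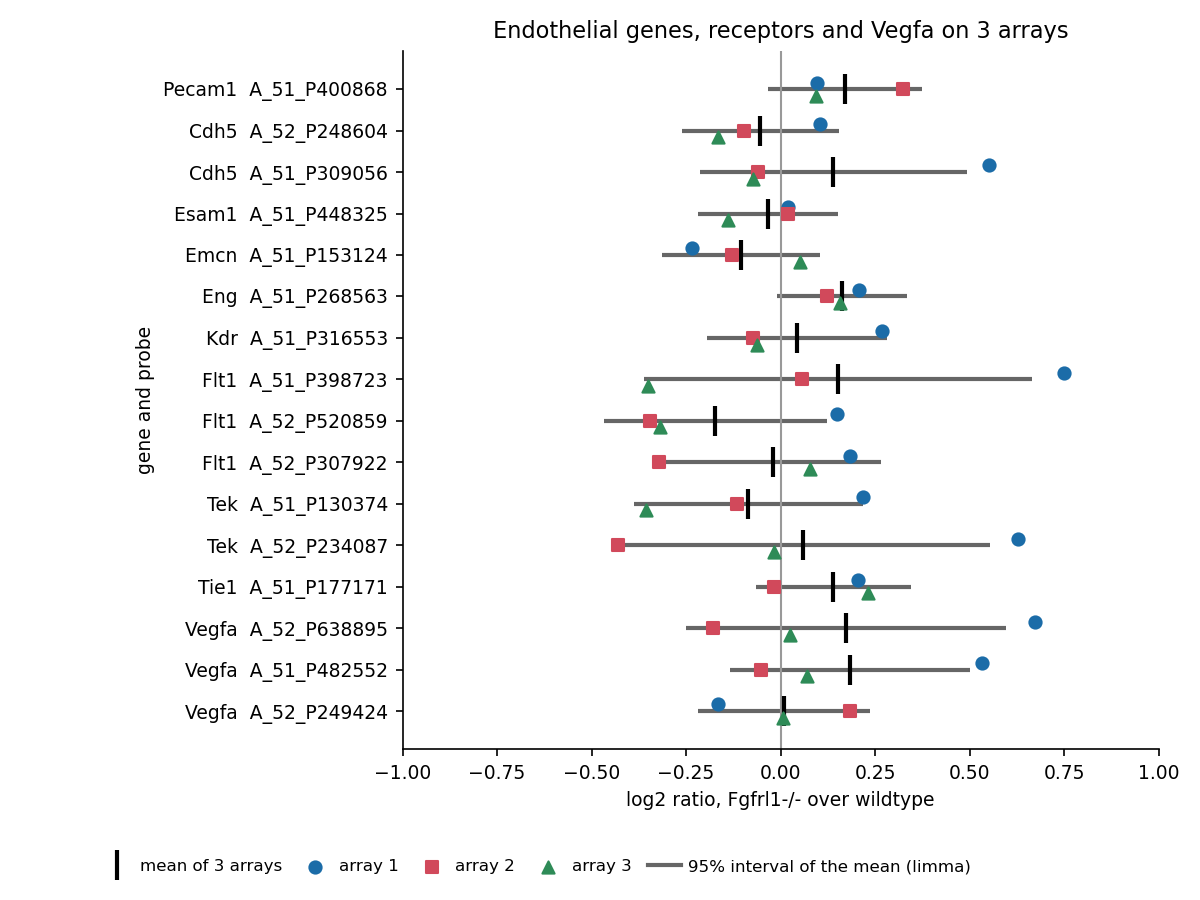
Log2 ratio of Fgfrl1-/- over wildtype (horizontal axis) for the 16 measured probes of the 10 genes (vertical axis). Points are the 3 arrays, vertical bars the means and grey lines the 95% intervals from limma, which include 0 for every probe; on array 1, 14 of the 16 points lie above 0.

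The genes of the endothelial surface and junctions came first. Pecam1 (CD31), an adhesion molecule of endothelial cells that leukocytes and platelets carry too, had normalized signals of 278, 229 and 272 in the Fgfrl1-/- pools and of 260, 183 and 255 in the wildtype pools (probe A_51_P400868, arrays 1, 2 and 3). The Fgfrl1-/- value was the higher on each array, but the groups overlapped. The log2 ratios were 0.10, 0.32 and 0.09, with a mean of 0.17 ± 0.13 (SD, n = 3, limma adjusted p = 0.40). This probe maps over a genomic span longer than itself, chr11:106497165-106499018, so that its match to the genome is split.

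Cdh5, the cadherin of endothelial adherens junctions, gave opposite signs with its 2 probes, which are 600 bases apart. On the brighter one, A_52_P248604, the signals were 1592, 1912 and 2389 in Fgfrl1-/- and 1481, 2046 and 2681 in wildtype kidneys. The level differed more from array to array than between the genotypes. The mean log2 ratio was -0.05 ± 0.14 (limma adjusted p = 0.83). The other probe, A_51_P309056, had ratios of 0.55, -0.06 and -0.07 and thus differed from 0 mainly on array 1 (mean 0.14 ± 0.36, limma adjusted p = 0.72).

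Esam1, an adhesion molecule of endothelial tight junctions that is now named Esam, was nearly equal in both channels of arrays 1 and 2. Its signals were 620, 710 and 774 in Fgfrl1-/- and 612, 701 and 852 in wildtype kidneys (mean log2 ratio -0.03 ± 0.09, limma adjusted p = 0.89). Emcn (endomucin), a sialomucin of venous and capillary endothelium, had signals of 3722, 4581 and 6257 in Fgfrl1-/- and of 4379, 5010 and 6043 in wildtype kidneys. The Fgfrl1-/- value was the lower one on arrays 1 and 2 and the higher one on array 3. The ratios of Emcn were -0.23, -0.13 and 0.05 (mean -0.10 ± 0.14, limma adjusted p = 0.64). Emcn was the only one of the 9 endothelial genes whose brightest probe was below 0 on array 1.

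Eng (endoglin), a co-receptor for Bmp9 and Tgf-beta ligands, had the steadiest ratios of the measured probes. Its signals were 473, 366 and 410 in Fgfrl1-/- and 410, 336 and 368 in wildtype kidneys, so that the groups overlapped although Fgfrl1-/- was the higher on each array. The log2 ratios of 0.21, 0.12 and 0.16 had a mean of 0.16 ± 0.04 (limma, unadjusted p = 0.059, adjusted p = 0.34). This was the lowest adjusted p among the 16 measured probes, and it did not pass.

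**Figure D2:**
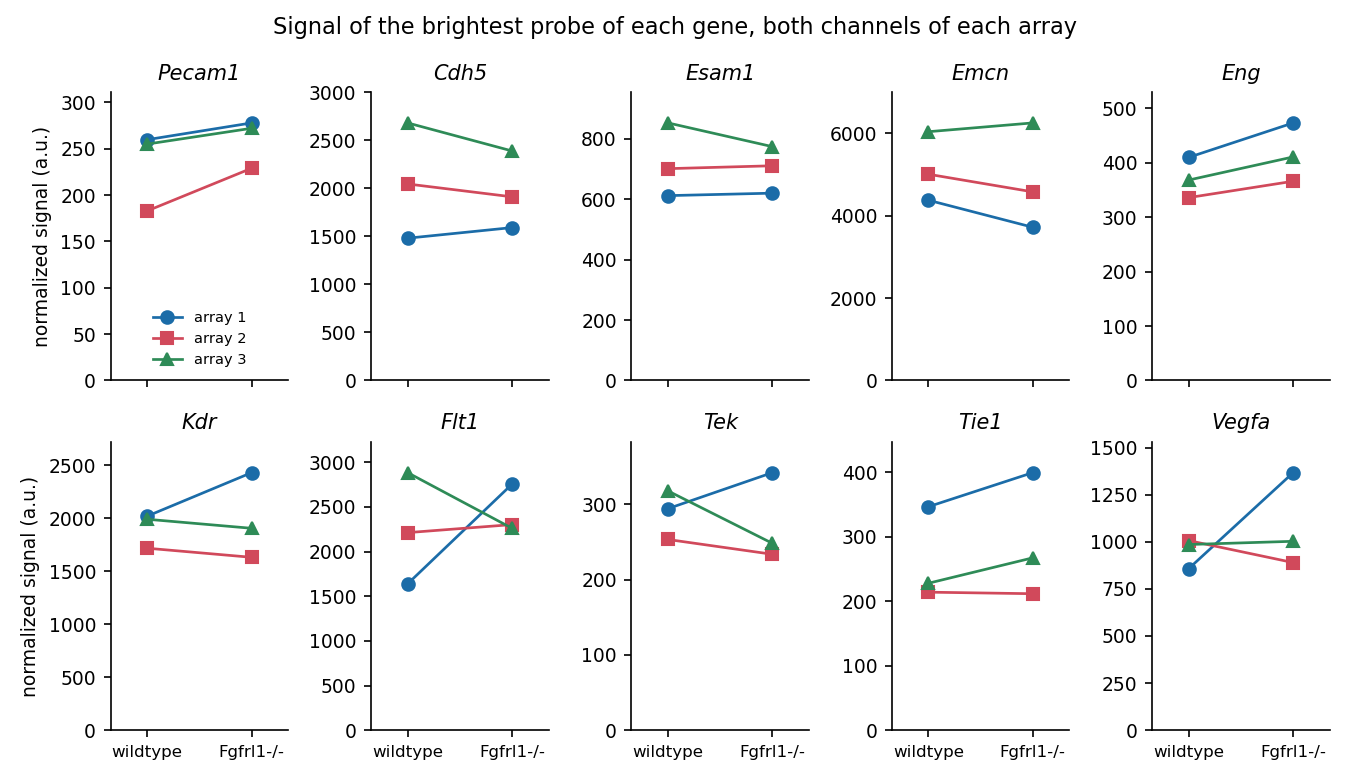
Normalized signal (arbitrary units, linear axis from 0) of the brightest probe of each gene in the wildtype and the Fgfrl1-/- channel, with 1 line per array. The lines of Cdh5, Esam1, Emcn, Kdr, Flt1, Tek, Tie1 and Vegfa run in both directions, and those of Pecam1 and Eng point upwards on all 3 arrays.

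Kdr, the main signalling receptor for Vegfa, had signals of 2432, 1632 and 1906 in Fgfrl1-/- and of 2021, 1718 and 1992 in wildtype kidneys (probe A_51_P316553). The Fgfrl1-/- value was higher on array 1 and lower on arrays 2 and 3. The ratios were 0.27, -0.07 and -0.06, with a mean of 0.04 ± 0.19 (limma adjusted p = 0.89, 95% interval -0.20 to 0.28). This Kdr probe was printed 10 times on each array. Between its spots, the SD came to 0.16 for array 1 and to 0.07 for each of the other arrays. On array 1, 9 of the 10 spots were above 0, compared with 3 of 10 on array 2 and 1 of 10 on array 3. The difference between array 1 and the other arrays was therefore larger than the spread between spots. The second Kdr probe, also printed 10 times, did not exceed background in any of the 6 channels.

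Flt1, the other Vegfa receptor and decoy, varied most between the arrays. Its brightest probe, A_51_P398723, had signals of 2755, 2302 and 2261 in Fgfrl1-/- and of 1639, 2212 and 2884 in wildtype kidneys. The wildtype pools ranged more widely than the Fgfrl1-/- pools and enclosed the latter. The ratios were 0.75, 0.06 and -0.35, which cover all 3 possibilities of higher, nearly equal and lower signal (mean 0.15 ± 0.56, limma adjusted p = 0.80). The neighbouring probe A_52_P520859 had ratios of 0.15, -0.35 and -0.32 (mean -0.17 ± 0.28, limma adjusted p = 0.57). Both probes belong to the same transcript and both gave their highest ratio on array 1, but the signs of their means were opposite. Another probe, A_52_P307922 (cDNA BC029674), had ratios of 0.18, -0.32 and 0.08 (mean -0.02 ± 0.27, limma adjusted p = 0.96).

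When array 1 was left out, so that both remaining arrays came from one slide, Flt1 A_52_P520859 was the single probe of the 10 genes that passed (mean -0.33 over 2 arrays, limma adjusted p = 0.0071). In that fit 10.1% of all probes were called lower. In the other alternatives that tested this probe by itself, its mean was below 0 with adjusted p-values from 0.50 to 0.95. The mean over all Flt1 probes, including those that were not above background, was 0.01 (limma adjusted p = 0.97). The other measured Flt1 probes had means of -0.15 (limma adjusted p = 0.32) and -0.12 (limma adjusted p = 0.41) over arrays 2 and 3, and did not pass. Kdr had a mean of -0.07 there (limma adjusted p = 0.58). On arrays 2 and 3 alone, 6 of the 16 measured probes were below 0 on both, 3 were above 0 on both, and 7 had opposite signs.

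**Figure D3:**
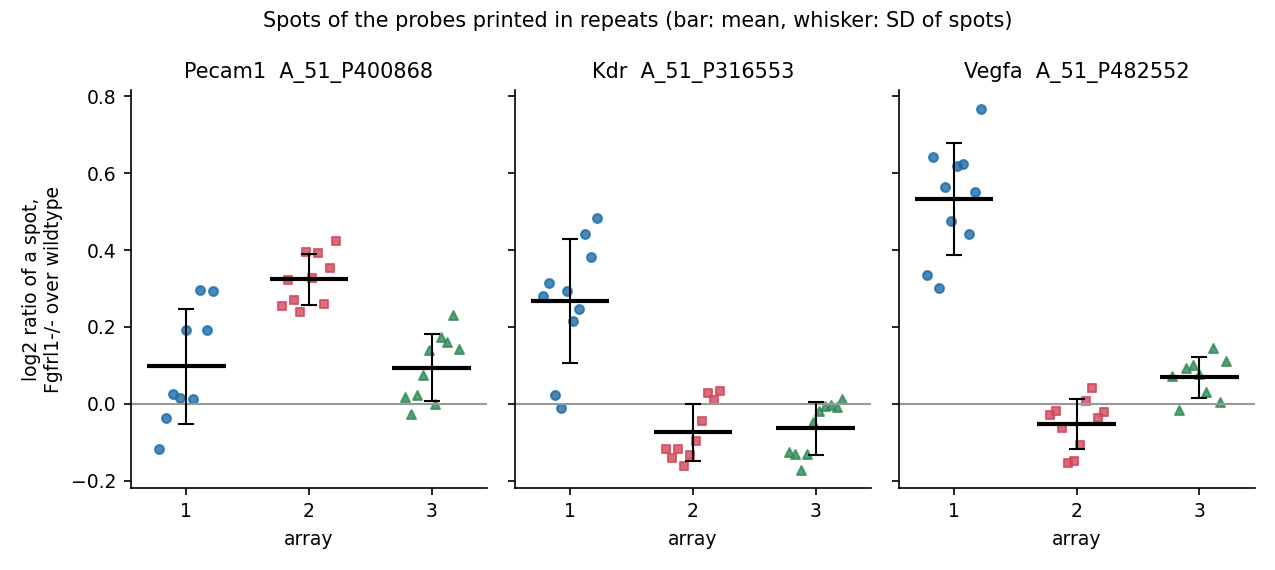
Log2 ratio of the single spots (vertical axis) of the measured Pecam1, Kdr and Vegfa probes that were printed 10 times, on arrays 1, 2 and 3 (horizontal axis, spots flagged as outliers left out). Black bars are means and whiskers SDs of the spots; the Kdr and Vegfa spots of array 1 lie mostly above those of arrays 2 and 3, and the Pecam1 spots of array 2 above most of those of arrays 1 and 3.

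Tek, the receptor for angiopoietins, had signals of 342, 234 and 248 in Fgfrl1-/- and of 294, 253 and 318 in wildtype kidneys (probe A_51_P130374). The value in Fgfrl1-/- kidneys was higher on array 1 and lower on arrays 2 and 3, as with Kdr. The mean log2 ratio was -0.09 ± 0.29 (limma adjusted p = 0.81). A second Tek probe, A_52_P234087 (cDNA AK053336), had ratios of 0.63, -0.43 and -0.02, and its SD of 0.53 was close to that of Flt1. Tie1, which has no ligand of its own among the angiopoietins and modulates Tek, had signals of 400, 212 and 268 in Fgfrl1-/- and of 347, 214 and 228 in wildtype kidneys. It was higher on arrays 1 and 3 and close to equal on array 2 (mean 0.14 ± 0.14, limma adjusted p = 0.50).

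Vegfa, the ligand, did not pass the test either. The brightest of its 3 probes, A_52_P638895, had signals of 1367, 890 and 1003 in Fgfrl1-/- and of 858, 1006 and 986 in wildtype kidneys. The Fgfrl1-/- pool of array 1 stood out, and the other 5 values lay close together. The ratios were 0.67, -0.18 and 0.02 (mean 0.17 ± 0.44, limma adjusted p = 0.71). The probe A_51_P482552, printed 10 times, had ratios of 0.53, -0.05 and 0.07 (mean 0.18 ± 0.31, limma adjusted p = 0.58). All 10 of its spots were above 0 on array 1, from 0.30 to 0.77, while 2 of 10 were on array 2. The third probe, A_52_P249424, had -0.17, 0.18 and 0.01 and so did not share the high value of array 1 (mean 0.01 ± 0.17, limma adjusted p = 0.98).

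To compare the endothelial genes with their ligand, the ratio of the brightest Vegfa probe was subtracted from that of each gene on the same array. The mean differences were -0.28 for Emcn, -0.26 for Tek, -0.23 for Cdh5, -0.21 for Esam1 and -0.13 for Kdr. Those of Tie1, Flt1, Eng and Pecam1 were closer to 0, at -0.03, -0.02, -0.01 and -0.0017. All 9 means were thus below 0, but limma called 0 of the 9 (adjusted p from 0.93), against 0.155% of all probes, and at an unadjusted p below 0.05 likewise 0 of the 9, against 3.01% of all probes. By array, 8 of the 9 genes lay below Vegfa on array 1 (all but Flt1), 0 of 9 on array 2 and 5 of 9 on array 3. For Kdr the differences were -0.41, 0.10 and -0.09 (95% interval of the mean -0.67 to 0.41), and for Flt1 0.08, 0.24 and -0.38 (95% interval -0.56 to 0.52). All 9 differences share the same Vegfa values and are not independent of each other. With the mean of the 3 Vegfa probes in place of the brightest, the means of Pecam1, Eng, Flt1 and Tie1 were above 0.

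The signs of the ratios depended on the normalization, because the ratio fell with brightness before loess. With median centring, the median of all probes well above background in both channels moved to -0.13, and that of the 9 endothelial genes to -0.17. Kdr (-0.25), Flt1 A_51_P398723 (-0.16) and Vegfa A_52_P638895 (-0.06) then became negative, without passing the test. Emcn and the brighter Cdh5 probe, which were below 0 with loess too, moved to -0.48 and -0.35 and did not pass either. A comparison added after the data were seen set each probe against the 1000 probes of most similar brightness under the same centring. Kdr was then at 0.04, Flt1 at 0.14 and Vegfa at 0.18. This step removes the trend with brightness as loess does, so that values close to those of loess were given in advance. It cannot tell which normalization is the better one.

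**Figure D4:**
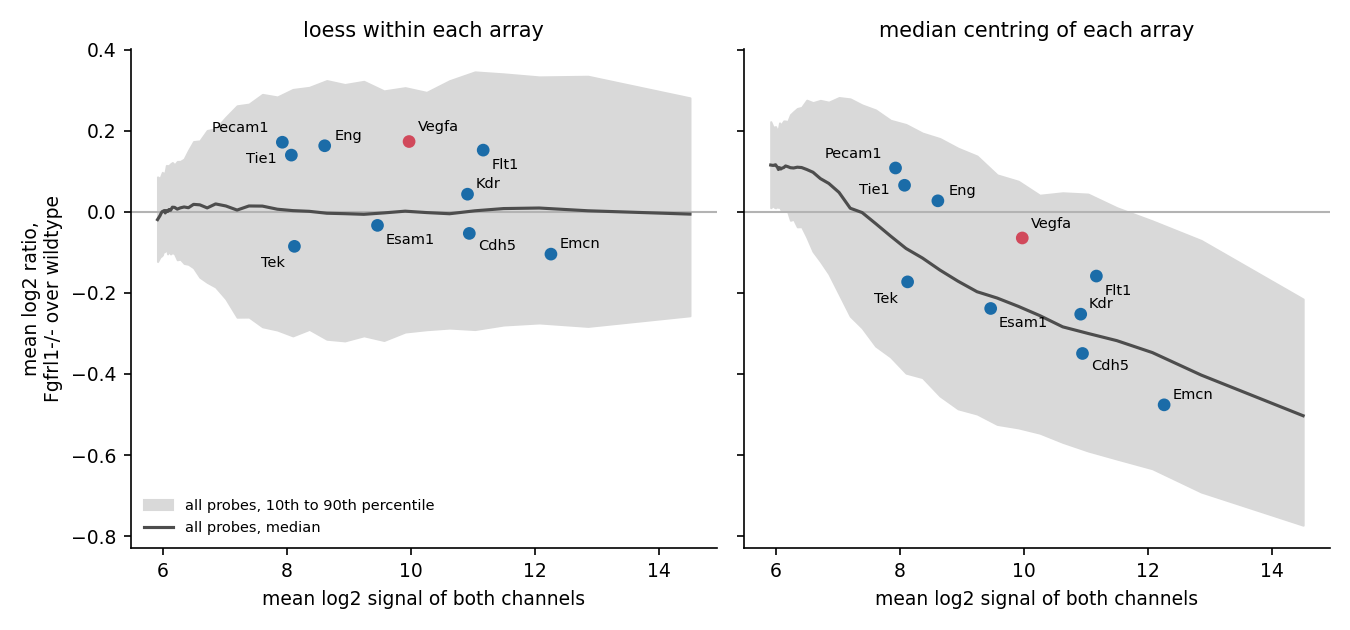
Mean log2 ratio over 3 arrays (vertical axis) against the mean log2 signal of both channels (horizontal axis), after loess (left) and after median centring (right). The grey band holds the middle 80% of all probes in bins of equal number and the line is their median; endothelial genes are blue and Vegfa is red, and after median centring they follow the falling median of all probes.

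Other genes of the same pathways were examined in lists, each gene by its brightest probe. The lists share genes, so that their counts and medians are not separate from each other. Nr2f2, Gja4, Gja5, Nrp1 and Nrp2 of the arterial and venous list also stand in other lists. Flt4 stands in the Vegf and the lymphatic list. Of the further Vegf ligands, receptors and co-receptors, 7 of 7 were measured, and limma called 0 lower and 0 higher. Their median was 0.26 (0.08 with median centring). Pgf, a ligand of Flt1, had ratios of 0.18, 0.82 and 0.71 (mean 0.57 ± 0.34, limma adjusted p = 0.13). The co-receptor Nrp1 had 0.22, 0.53 and 0.33 (mean 0.36 ± 0.16, limma adjusted p = 0.13), and Figf (Vegfd) had 0.46, 0.20 and 0.39 (mean 0.35 ± 0.13, limma adjusted p = 0.13). All 3 were above 0 on every array, and none passed. Vegfb, another ligand of Flt1, was at 0.99 on array 1 and close to 0 or below it on arrays 2 and 3. Vegfc had a mean of -0.15, Nrp2 of -0.03 and Flt4 (Vegfr3), which was above background on part of the arrays, of 0.03.

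In the angiopoietin pathway, 5 of 6 further genes were measured, and limma called 0. The ligand Angpt1 had a mean of 0.01 ± 0.16, and its antagonist Angpt2 one of 0.20 ± 0.23. In the Bmp9 and Alk1 pathway, to which Eng belongs, 8 of 11 genes were measured and limma called 0. The receptor Acvrl1 (Alk1) had a mean of 0.00 ± 0.20. The target gene Id1 was at -0.42, -0.45 and -0.52 (mean -0.46 ± 0.05, limma adjusted p = 0.066), so that its 3 arrays lay close together without passing the test. Id1 is expressed in many cells besides the endothelium.

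Among 31 other endothelial genes, all of them measured, limma likewise called 0 lower and 0 higher. Their median was -0.03, with 15 genes above 0 (-0.18 and 7 genes with median centring). On all 3 arrays, 7 of them were above 0 (Ramp2, Robo4, Cd93, Calcrl, Aplnr, Stab1 and Pcdh12), against 19.1% of all probes. Below 0 on all 3 arrays were 6 (Cldn5, Icam2, Cd34, Nos3, Esm1 and Gja4), against 19.3% of all probes. Cldn5, a tight junction protein, was at -0.14, -0.49 and -0.27 (mean -0.30 ± 0.18, limma adjusted p = 0.20). Stab1, a scavenger receptor that macrophages carry as well, was at 1.26, 0.60 and 0.65 (mean 0.84 ± 0.37, limma adjusted p = 0.083). Vwf ranged from -1.12 to 0.96 and had the largest SD of these genes (1.05). Of 14 transcription factors of the endothelium, 0 were called. Erg had a mean of -0.20 ± 0.05 and Elk3 one of 0.49 ± 0.13 (limma adjusted p = 0.24 and 0.079). Of 10 genes of arteries and veins 0 were called, with a median of 0.03 and 6 genes above 0 (-0.24 and 3 genes with median centring). Their means ran from -0.50 for Hey2 (limma adjusted p = 0.096) to 0.36 for Nrp1. Of 5 measured genes of the lymphatic endothelium 0 were called. Without array 1, limma called 9 of the 31 other endothelial genes lower and 4 higher, 3 of the 14 transcription factors lower and 1 higher, and 3 of the 10 arterial and venous genes lower and 1 higher. In the same fit 10.1% of all probes were lower and 8.49% higher. Of the 7 Vegf genes 1 was then lower and 3 were higher, of the 5 angiopoietin genes 1 was lower, of the 8 genes of the Bmp9 and Alk1 pathway 3 were lower, and of the 5 lymphatic genes 2 were lower and 1 was higher.

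Vegfa is a target of the hypoxia response. Of 20 genes of this response, 1 was lower and 1 was higher, against 0.398% of all probes lower and 0.289% higher. Hk2 (hexokinase 2) had a mean of -0.59 ± 0.03 (limma adjusted p = 0.043) and Ddit4, an inhibitor of mTOR signalling, a mean of 0.76 ± 0.18 (limma adjusted p = 0.044). Both kept their sign under 9 settings (Hk2 from -0.95 to -0.57, Ddit4 from 0.35 to 0.84), but they passed the test in 2 of these. Fgfrl1 passed in 5 of the 9, and under some of them no probe of the array passed. The median of the 20 genes was 0.07 (-0.16 with median centring). On all 3 arrays, 7 of the 20 were above 0, against 19.1% of all probes. They were Arnt, Bnip3, Ndrg1, Pdk1, Ankrd37, Kdm3a and Ddit4. Below 0 on all 3 arrays were 3 (Egln3, Adm and Hk2), against 19.3% of all probes. Bnip3, Ndrg1, Pdk1, Ankrd37 and Kdm3a had means from 0.38 to 0.48 and did not pass (limma adjusted p from 0.064 to 0.097). Without array 1, limma called 3 of them lower and 8 higher, against 10.1% of all probes lower and 8.49% higher.

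**Figure D5:**
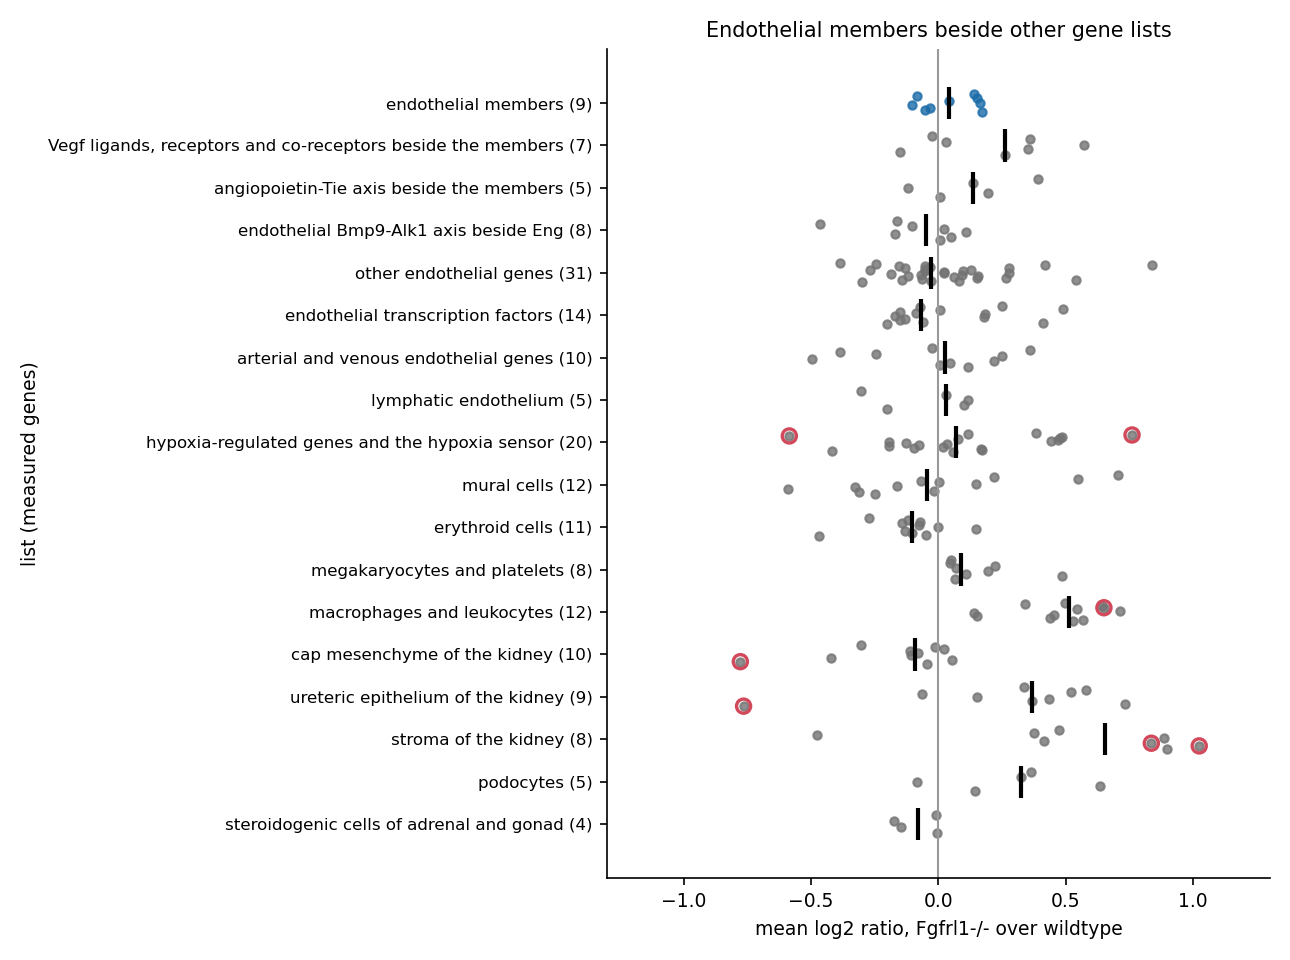
Mean log2 ratio over 3 arrays (horizontal axis) of the brightest probe of each measured gene, by list (vertical axis, number of genes in brackets). Black bars are medians and red circles mark genes with a limma adjusted p below 0.05; the 9 endothelial genes lie between -0.10 and 0.17, none of them circled.

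Genes of other cells in the rudiment were measured beside the endothelial genes. The 12 genes of macrophages and leukocytes, which share Pecam1 and Stab1 with the endothelium, were all above 0 on all 3 arrays, against 19.1% of all probes. Their median was 0.51 (0.39 with median centring). Their summed signals ran from 6461 to 8887 in Fgfrl1-/- and from 4856 to 5668 in wildtype kidneys. Lyz2 alone made up 4143, 2616 and 3197 of the Fgfrl1-/- sums on arrays 1, 2 and 3, and 1954, 1855 and 2168 of the wildtype sums. Of the 12 genes, 1 passed the test, C1qa (mean 0.65 ± 0.11, limma adjusted p = 0.043), against 0.289% of all probes called higher. All 12 were also above 0 on average with median centring. The part of these cells in the values of Pecam1 and Stab1 was not tested. The 8 genes of megakaryocytes and platelets had a median of 0.09 (0.14 with median centring), with 0 called, and summed signals from 2450 to 2973 in Fgfrl1-/- and from 1800 to 3117 in wildtype kidneys. Of 12 genes of mural cells, which surround the endothelium, 0 were called (median -0.04, and -0.27 with median centring), and Pdgfrb was at 0.02, -0.37 and -0.39. The measured 11 erythroid genes had a median of -0.10 (-0.33 with median centring), with 0 called. Without array 1, 3 mural genes were lower and 2 higher, 2 erythroid genes were lower and 1 higher, and 9 of the 12 macrophage genes were higher. Of all probes, 10.1% were lower and 8.49% higher in that fit. Of the kidney's own cells, 1 of 10 cap mesenchyme genes (Cited1) and 1 of 9 ureteric epithelium genes (Wnt11) were lower over all 3 arrays. Of 8 stromal genes, 2 were higher (Pdgfra and Col1a1). In this fit over 3 arrays, 0.398% of all probes were lower and 0.289% higher. The ureteric list had a median of 0.37 (0.07 with median centring) and 6 of its 9 genes above 0 on all 3 arrays, the cap mesenchyme a median of -0.09 (-0.26) and the stroma one of 0.65 (0.19). These 4 genes and C1qa kept their sign under 9 settings, but passed in 2 to 4 of them. The targeted gene Fgfrl1 passed in 5. No probe of the array passed with an offset of 0, with the scanner's ratios, without array 2 or without array 3. The paper that reported these arrays did not find Col1a1 raised by qPCR of E12.5 kidneys. Among 5 podocyte genes and 4 genes of steroidogenic cells 0 were called.

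The 5 genes whose 3 ratios were closest to the median of the 9 endothelial genes, among 13221 genes measured on all arrays, were Kif23, Col6a4 (named 1110001D15Rik in the files), Zfp934 (6720457D02Rik), Daam1 and Tomm22. Their Euclidean distances in log2 units ran from 0.011 to 0.029 over 3 arrays. They describe a high value on array 1 and values close to 0 on arrays 2 and 3.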

How the data were processed

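Kidney RNA pools were compared on 3 Agilent arrays. The scanner files that the authors deposited hold median intensities of each spot and its local background, flags and log10 ratios (Feature Extraction 9.5.3.1 for array 1, 10.5.1.1 for arrays 2 and 3, per the file headers; the submitters' processing notes name version 10). A deposited table holds log2 ratios that the authors made with R and Bioconductor; its direction was taken from its correlation with the scanner ratios, and its steps are not named. Signals were corrected with normexp (offset 50) and loess within arrays in limma 3.58.1 (R 4.3.3), control spots having weight 0. Outlier spots were left out, spots of a probe were averaged, and log2 ratios were fitted with an intercept and eBayes over all 41174 probes, with Benjamini-Hochberg adjustment. Each array pairs its pools, and n is the number of arrays, which limits the precision. The scripts were tested on simulated data. Between 57.1% and 80.2% of probes in the Fgfrl1-/- channel and 60.9% and 65.0% in the wildtype channel were well above background. Of the spots, 0 were saturated. The 10 genes and the lists were chosen with earlier results of these data known. Named are every probe of the 10 genes, listed genes that pass or that the list is best known by, and the 5 genes of closest ratios. In the hypoxia list and the list of other endothelial genes, the genes with the same sign on all arrays are named too. Symbols were updated with RefSeq (GRCm38.p6). One probe sequence is not reported here. Alternatives are given in the closing section.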

Additional observations from a re-analysis of the deposited data

How the results depend on the processing

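Under every alternative that was run, 0 of the 20 probes were called higher, and 0 were called lower except without array 1, where Flt1 A_52_P520859 passed (-0.33, range of calls with 1 array left out 0 to 1). The count over all probes, 283, was 0 with a normexp offset of 0, with the scanner's ratios and with one value per slide (added after the data were seen), 6 with a trend and robust variances, 36 with the authors' table, 60 without dim probes, 93 with median centring and 463 with separate channels, and ranged from 0 to 7666 with 1 array left out, the highest without array 1. The median of the 9 endothelial genes was -0.17 with median centring and stayed within the spread of its array values (SD 0.14) in the other alternatives. The slide as a random block could not be fitted, since only 1 slide held more than 1 array. The main fit was already paired, because each array pairs its pools in 1 ratio. No group of arrays was compared with another, so that no further pairing was possible.

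Values near 0 changed sign under some alternatives, none of them past the threshold on either side; the cause was not tested. For the log2 ratios, Tek A_52_P234087 was -0.029 without background subtraction. The scanner's ratios gave Cdh5 A_52_P248604 0.055, Cdh5 A_51_P309056 -0.099, Tek A_52_P234087 -0.26 and Vegfa A_52_P249424 -0.033. Median centring gave Kdr -0.25, Flt1 A_51_P398723 -0.16, Vegfa A_52_P638895 -0.065 and Vegfa A_52_P249424 -0.017. The authors' table gave Tek A_52_P234087 -0.056 and Vegfa A_52_P249424 -0.038, one value per slide gave Flt1 A_52_P307922 0.031 and Vegfa A_52_P249424 -0.035, and averaging a gene's probes gave Cdh5 0.043. With 1 array left out, Cdh5 A_51_P309056 ranged from -0.066 to 0.25, Cdh5 A_52_P248604 from -0.13 to 0.0030, Esam1 from -0.060 to 0.019, Kdr from -0.069 to 0.10, Flt1 A_51_P398723 from -0.15 to 0.40, Flt1 A_52_P307922 from -0.12 to 0.13, Tek A_51_P130374 from -0.24 to 0.050, Tek A_52_P234087 from -0.22 to 0.30, Vegfa A_52_P638895 from -0.077 to 0.35 and Vegfa A_52_P249424 from -0.080 to 0.095.

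The differences from Vegfa that changed sign were, for Pecam1, 0.041 without background subtraction, 0.047 with an offset of 0, 0.16 with the scanner's ratios, 0.17 with median centring, 0.016 with outlier spots kept, 0.012 with the authors' table and 0.050 with the mean of all Vegfa probes. Those for Eng were 0.0090 with an offset of 0, 0.092 with median centring, 0.041 when a gene's probes were averaged and 0.041 with the mean of all Vegfa probes. Tie1 was 0.13 with median centring, 0.018 when a gene's probes were averaged and 0.018 with the mean of all Vegfa probes. Flt1 was 0.085 with the scanner's ratios, 0.031 with the mean of all Vegfa probes and 0.0034 with one value per slide. With 1 array left out, the differences ranged from -0.25 to 0.29 for Pecam1, from -0.41 to 0.017 for Esam1, from -0.44 to 0.037 for Emcn, from -0.17 to 0.22 for Eng, from -0.25 to 0.0080 for Kdr, from -0.15 to 0.18 for Tie1 and from -0.15 to 0.16 for Flt1.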
